A study of Mus musculus with 4 samples.

Results

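Imprinted genes are transcribed mainly from the copy inherited from 1 parent. The choice is written in DNA methylation laid down in the egg or the sperm and kept at imprinting control regions, and the genes sit in clusters in which a long noncoding RNA often silences the neighbouring coding genes on the same chromosome. They are known for steering fetal growth, placental function and the commitment of mesenchymal cells to fat, bone and muscle. The genes described here are 37 imprinted genes, chosen by symbol from genes known to be imprinted in the mouse, and all 37 were found among the 41029 rows of the deposited expression table through their Ensembl identifiers. They fall into 9 loci or clusters and 8 single genes, and 7 of them are noncoding.

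The RNA came from bone marrow mesenchymal stem/progenitor cells of C57BL/6 mice, stromal cells able to give rise to bone, cartilage and fat, which had been cultured in MesenCult medium. Of the 4 libraries, 2 are labelled Tet2-/- (called knockout 1 and knockout 2) and 2 wild type (wild type 1 and wild type 2). Tet2 encodes an enzyme that oxidises methylated cytosine, and the design compares the genotypes. Age, passage number and the way the Tet2 allele was made are not given in the sources used here, and nothing says that the 2 libraries of a group came from separate animals or cultures, so p-values measure only the spread between these samples.

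Levels are in FPKM, reads of a gene divided by gene length and by all reads over genes in that library. The libraries held between 10096878 and 21337246 reads over genes. Read counts of single genes are the smallest that the values allow, and are exact for Peg13 and Rtl1. The level of Tet2 itself was 11.6 FPKM in knockout 1, 9.70 FPKM in knockout 2, 7.01 FPKM in wild type 1 and 8.39 FPKM in wild type 2 (adjusted p = 0.329, limma). It was thus not lower in the libraries labelled Tet2-/-, and since the part of the gene removed is not given in the sources used here, it does not check the labels. Of 15 stromal markers 14 reached an average of 1 FPKM, whereas 0 of 6 endothelial markers did (summed 0.823 to 1.48 FPKM per library, Emcn at 0 in knockout 2 and in both wild-type libraries). Of the 14 stromal markers 3 lay above both wild types and 5 below both, against 29.4% and 24.8% of all tested genes. Among those below, Eng stood at 1.53 and 1.59 FPKM in knockout 1 and 2 against 110 and 102 FPKM in wild type (adjusted p = 0.0237, limma). Macrophage markers were present in all libraries, with 9 of 10 averaging at least 1 FPKM and a summed level between 91.6 and 123 FPKM. Osteoblast markers stood apart in knockout 2, where the median difference from wild type of the 8 tested was 5.03 on the log2 scale, against -0.08 in knockout 1. Their summed level was 3936 and 3904 FPKM in knockout 1 and 2 and 1847 and 1990 FPKM in wild type. Spp1 alone gave 3871 and 2528 FPKM of it in knockout 1 and 2 and 1775 and 1918 FPKM in wild type. All 3 tested of 5 adipocyte markers (Lpl, Pparg and Fabp4) lay above both wild types, with a median log2 difference of 0.26 in knockout 1 and 2.05 in knockout 2. Summed over the 5, they stood at 216 FPKM in knockout 1, 61.6 FPKM in knockout 2 and 26.4 and 23.6 FPKM in wild type. Lpl alone gave 190 FPKM in knockout 1 and 17.4 FPKM in knockout 2. The defining marker Adipoq was nearly absent from all libraries. It stood at 0.0689 and 0.0512 FPKM in knockout 1 and 2, from at least 1 read each, and at 0 in both wild types. A lower level in such bulk cultures cannot be told apart from a smaller share of cells that make the transcript.

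The windows around the transcription starts of 5 genes on which the results turn are shown first, because the dinucleotide CG is the site of the methylation that Tet enzymes act on. Each runs from 250 bases before to 50 bases after the start in RefSeq (GRCm38.p6), reads 5′ to 3′ along the gene's strand and has every CG in capitals. They are Grb10 (chr11:12037371-12037670, minus strand), Airn (chr17:12741061-12741360, plus strand), Meg3 (chr12:109540746-109541045, plus strand), Rian (chr12:109603695-109603994, plus strand) and Ndn (chr7:62348027-62348326, plus strand).
Grb10: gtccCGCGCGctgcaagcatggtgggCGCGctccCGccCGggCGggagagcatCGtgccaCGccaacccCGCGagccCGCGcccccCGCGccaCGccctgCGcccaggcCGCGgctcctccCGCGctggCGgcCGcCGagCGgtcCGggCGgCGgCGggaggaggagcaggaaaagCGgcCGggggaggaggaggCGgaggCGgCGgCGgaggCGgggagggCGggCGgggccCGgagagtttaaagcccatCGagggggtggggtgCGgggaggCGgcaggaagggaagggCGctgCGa
Airn: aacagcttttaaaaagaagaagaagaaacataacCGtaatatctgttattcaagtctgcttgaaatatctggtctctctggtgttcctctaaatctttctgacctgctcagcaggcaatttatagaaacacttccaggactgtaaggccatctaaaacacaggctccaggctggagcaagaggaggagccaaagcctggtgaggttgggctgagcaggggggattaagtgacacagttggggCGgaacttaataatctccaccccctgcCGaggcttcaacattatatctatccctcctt
Meg3: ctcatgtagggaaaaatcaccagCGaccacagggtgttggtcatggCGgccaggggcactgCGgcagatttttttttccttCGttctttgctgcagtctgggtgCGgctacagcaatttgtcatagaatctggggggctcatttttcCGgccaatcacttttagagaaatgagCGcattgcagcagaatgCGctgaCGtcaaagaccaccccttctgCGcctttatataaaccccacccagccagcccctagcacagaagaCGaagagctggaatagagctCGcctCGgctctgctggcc
Rian: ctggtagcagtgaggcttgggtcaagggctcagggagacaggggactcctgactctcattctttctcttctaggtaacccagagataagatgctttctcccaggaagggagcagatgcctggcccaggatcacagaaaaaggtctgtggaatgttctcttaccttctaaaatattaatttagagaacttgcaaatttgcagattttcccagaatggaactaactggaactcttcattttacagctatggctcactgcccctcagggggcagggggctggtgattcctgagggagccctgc
Ndn: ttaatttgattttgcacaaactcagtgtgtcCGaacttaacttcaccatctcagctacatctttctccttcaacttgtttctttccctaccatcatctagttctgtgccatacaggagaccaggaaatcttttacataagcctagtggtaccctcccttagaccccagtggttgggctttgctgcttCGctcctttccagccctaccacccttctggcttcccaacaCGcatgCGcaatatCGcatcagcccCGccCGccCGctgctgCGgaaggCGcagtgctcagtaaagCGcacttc
The windows differ widely in CG content. Where a gene had several starts listed, the window with the most CG was taken, so each count is the highest for that gene. The Grb10 window holds 45 CG. Of the 32851 windows in the table, which were not chosen in this way, 1.93% hold as many or more. Airn's holds 3, Meg3's 13 and Ndn's 11, while Rian's holds 0, as do 5.43% of all windows. The median is 7 over all windows and 16 over the 45 windows of the 30 imprinted genes counted, for which more than 1 start can be listed. The palindrome TGACGTCA, the binding sequence of cyclic AMP response factors, occurs once in the Meg3 window and in none of the others, and 1.79% of all windows hold it. TGCCGC, the core of the sequence bound by the imprint-protecting factor ZFP57, was searched on both strands. It occurs once each in the Grb10 and Meg3 windows and in 11.6% of all windows. These are matches of letters, not measured sites, and methylation was not analysed here.

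Many imprinted genes were low in these cells. The minimum for a test, a 4-library average of 1 FPKM, was reached by 21 of the 37 and by 12344 of all 41029 genes. Of the 21 members, 2 passed with a group mean under 1 FPKM, namely H19 and Dlk1. The other 16 had at most 1.37 FPKM in any library, the smallest counts that the values allow were 10 reads or fewer in every library for 11 members, and Zdbf2 was listed at 0 throughout. The highest were Igf2r, Ube3a, Copg2, Impact, Ndn and Sgce, whose wild-type means lay between 40.9 and 66.8 FPKM.

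**Figure D1:**
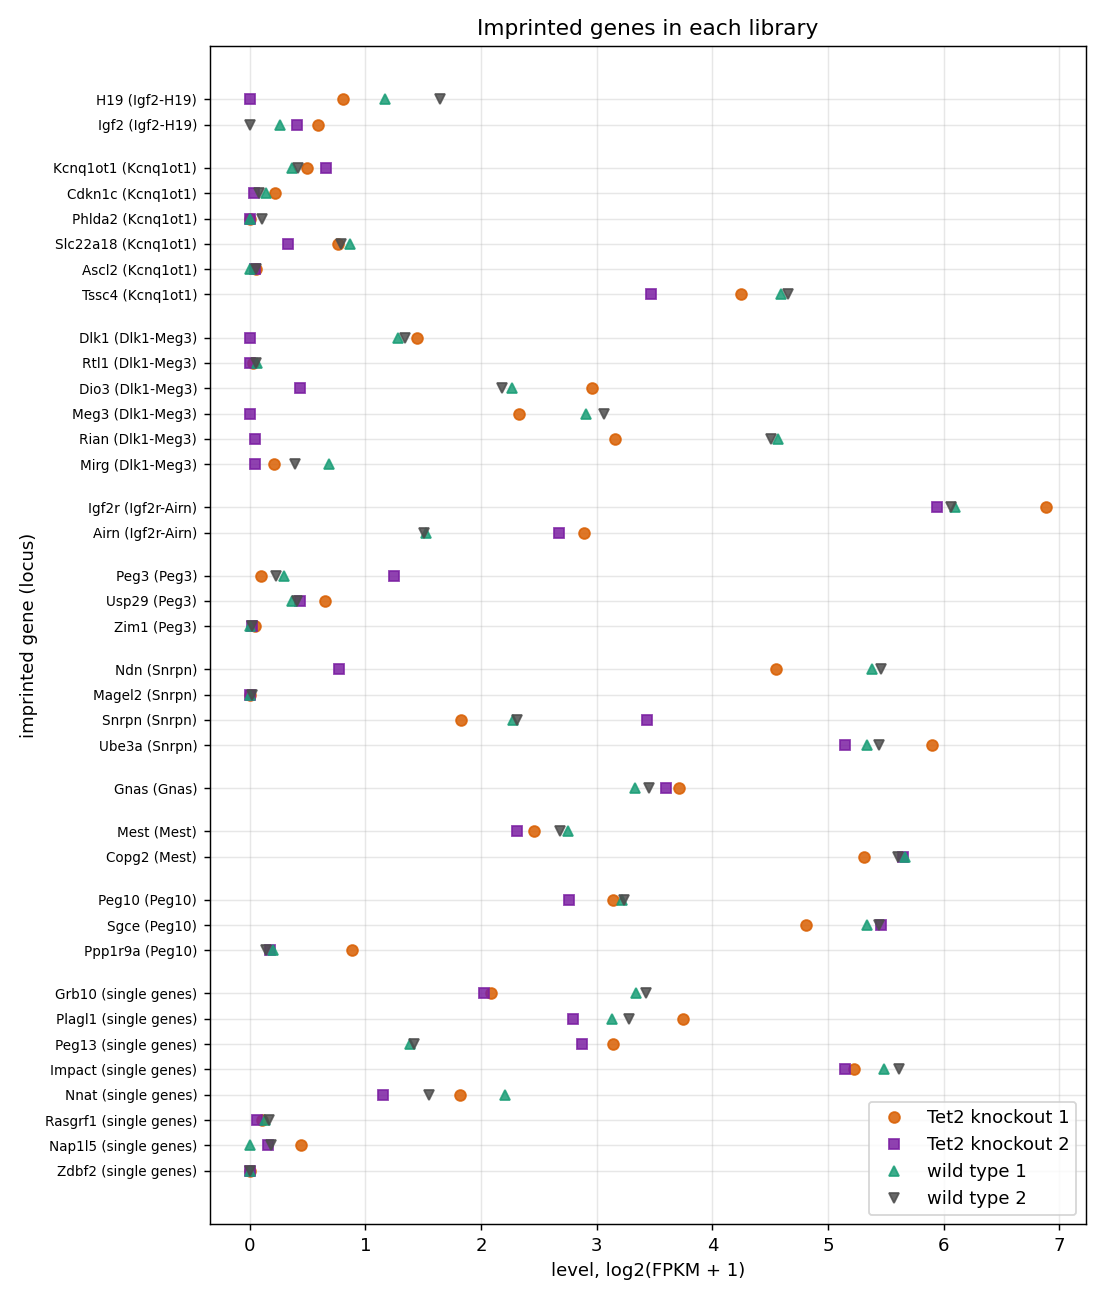
Level of each of the 37 imprinted genes in each library, as log2(FPKM + 1), grouped by locus, with 1 point per library. Circles and squares are the libraries labelled Tet2 knockout 1 and 2, triangles those of wild type 1 and 2; the knockout 2 squares of Dlk1, Meg3, Rian, Dio3 and Ndn lie far to the left of the other points, and those of Airn and Peg13 lie to the right of both wild types together with the circles.

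No imprinted gene passed the test between genotypes (adjusted p under 0.05 over 12344 genes, limma on log2(FPKM + 1)), which 0.0162% of all tested genes did (0.0081% higher and 0.0081% lower). At an unadjusted p under 0.05 there were 4 of 21, with Airn and Peg13 higher and Grb10 and Impact lower in the libraries labelled knockout, against 17.1% of all tested genes (8.84% higher and 8.29% lower). A fit on reads (limma-voom) also called 0 at the adjusted and 4 at the unadjusted threshold. For any single gene, the smallest p that an exact permutation of 2 libraries against 2 allows is 0.333. The knockout-labelled libraries lay outside the wild-type range on 1 side for 12 of the 21, compared with 54.2% of all tested genes. Of these 12, 9 were lower and 3 higher, where the shares over all genes were 24.8% lower and 29.4% higher. The median log2 difference of the 21 was -0.34, beside 0.03 over all tested genes, and it was -0.26 in knockout 1 and -0.42 in knockout 2.

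The clearest differences common to both libraries were those of Grb10, Peg13, Airn and Rian, the 4 members whose knockout-labelled libraries each stood at least 2-fold from each wild type on the log2(FPKM + 1) scale. Airn and Peg13 were higher (0.794% of all tested genes were), and Rian and Grb10 lower (1.13% of all, and 1.92% for both directions together). In Grb10, Peg13 and Airn the libraries of a group lay close together.

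Grb10 encodes an adaptor protein that restrains signalling from the insulin and insulin-like growth factor receptors. In the mouse it is expressed from the maternal copy in most tissues and from the paternal copy in the brain. Its level was 3.25 FPKM in knockout 1 and 3.07 FPKM in knockout 2, against 9.13 and 9.73 FPKM in wild type 1 and 2, from at least 104, 132, 186 and 349 reads. Both knockout-labelled libraries thus lay at about the same level, well below both wild types. The mean was 2.98-fold higher in wild type (log2 difference -1.33, SE 0.15, adjusted p = 0.156, limma). The gene (ENSMUSG00000020176) spans bases 11930508 to 12038683 of the minus strand of chromosome 11. The only other tested gene that starts within 2 Mb is Fignl1, at 13.1 and 9.22 FPKM in the knockout-labelled and 9.65 and 11.6 FPKM in the wild-type libraries. The median log2 difference of the other tested genes of chromosome 11 was -0.16 in knockout 1 and -0.13 in knockout 2.

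Peg13 is a paternally expressed noncoding RNA that lies in an intron of Trappc9, a gene for a vesicle-tethering protein. Its level was 7.83 FPKM in knockout 1 and 6.31 FPKM in knockout 2, against 1.61 and 1.68 FPKM in wild type, from 586, 636, 77 and 141 reads. The lower knockout-labelled value was still far above both wild types, and the ratio of means was 4.29 (log2 difference 1.60, SE 0.19, adjusted p = 0.156, limma). Peg13 (ENSMUSG00000106847, chromosome 15, bases 72805600 to 72810324) and Trappc9 are on the same strand, so reads of unspliced Trappc9 RNA would count for Peg13. All 4725 exon bases of Peg13 lie inside the span of Trappc9, and none is shared with a Trappc9 exon. Trappc9 over its own exons went the other way, at 12.3 and 13.5 FPKM against 15.0 and 14.5 FPKM (log2 difference -0.18, adjusted p = 0.517, limma). Peg13 thus came to 63.9% of the Trappc9 level in knockout 1 and 46.6% in knockout 2, and to 10.7% and 11.6% in the wild types. The 22 tested genes annotated as sense-intronic, like Peg13, had a median log2 difference of 0.37 in knockout 1 and 0.11 in knockout 2. The 12 other tested genes that start within 2 Mb of Peg13 had medians of 0.11 and -0.18. They ranged from -0.91 to 2.75 in knockout 1 and from -1.95 to 0.17 in knockout 2. How much of the Peg13 difference is shared with them was not tested.

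Airn is the paternally expressed noncoding RNA whose transcription silences the paternal copy of Igf2r. Igf2r encodes the receptor that clears insulin-like growth factor 2 and is expressed from the maternal copy. Airn stood at 6.43 and 5.36 FPKM in knockout 1 and 2 against 1.87 and 1.84 FPKM in wild type, from at least 81, 91, 15 and 26 reads. The groups were far apart, with a ratio of means of 3.18 (log2 difference 1.27, SE 0.18, adjusted p = 0.188, limma). Igf2r stood at 117 FPKM in knockout 1 and at 60.3, 67.6 and 66.0 FPKM in knockout 2, wild type 1 and wild type 2 (adjusted p = 0.652, limma). Knockout 1 was therefore the only library with more Igf2r, and knockout 2 lay slightly below both wild types. The level of Airn was 5.50% of that of Igf2r in knockout 1, 8.90% in knockout 2 and 2.76% and 2.79% in the wild types. Airn (ENSMUSG00000078247, chromosome 17, bases 12741311 to 12860136, plus strand) is antisense to Igf2r (ENSMUSG00000023830, bases 12682406 to 12769664). Of its 3597 exon bases 114 lie inside the span of Igf2r and 0 in an Igf2r exon in the annotation, while the exons used by the authors are not known. The part of unspliced Igf2r RNA in the Airn values was not tested. The 11 other tested genes that start within 2 Mb of Airn had median log2 differences of 0.21 in knockout 1 and 0.20 in knockout 2. They ranged from -0.59 to 1.95 in knockout 1 and from -2.91 to 1.19 in knockout 2. The highest in both was Thbs2, which like Airn stood at least 2-fold above both wild types in each. Tested genes annotated as antisense, 132 in number, had a median log2 difference of 0.13.

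**Figure D2:**
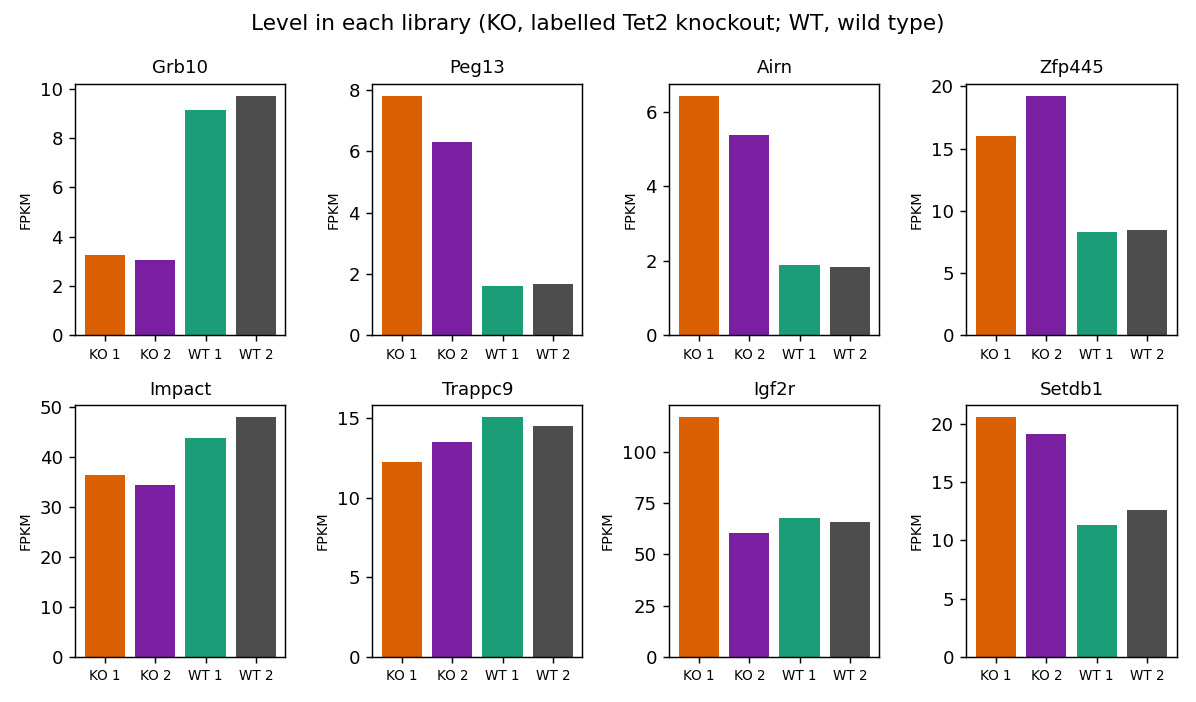
Level in FPKM in each of the 4 libraries, 1 bar per library, for the 4 imprinted genes with an unadjusted p under 0.05 (Grb10, Peg13, Airn and Impact), for Trappc9 and Igf2r, which overlap Peg13 and Airn, and for Zfp445 and Setdb1, regulators of imprinting control regions. Grb10 stood near 3 FPKM in both knockout-labelled libraries (3.25 and 3.07), and Peg13 and Airn lay above both wild types in both, which Trappc9 did not.

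Impact, which encodes an inhibitor of the stress kinase GCN2, showed a small difference. It stood at 36.4 and 34.4 FPKM against 43.8 and 47.9 FPKM, with both knockout-labelled libraries below both wild types (log2 difference -0.36, SE 0.12, unadjusted p = 0.0404, adjusted p = 0.276, limma).

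The Dlk1-Meg3 locus on chromosome 12 holds paternally expressed coding genes (Dlk1, an inhibitor of fat cell differentiation, Rtl1, a retrotransposon-derived gene, and Dio3, the deiodinase that inactivates thyroid hormone) and maternally expressed noncoding RNAs (Meg3, Rian, a host of small nucleolar RNAs, and Mirg, a host of microRNAs). Its genes were almost without reads in knockout 2. Over all 10 annotated genes from the start of Dlk1 to the end of Dio3 (bases 109452823 to 110281097) at least 18 reads were found in knockout 2, or 0.844 per 1e6 reads of the library. There were at least 604 reads in knockout 1 (38.1 per 1e6), 609 in wild type 1 (60.3 per 1e6) and 1080 in wild type 2 (60.7 per 1e6). The low level covered both the maternally and the paternally expressed members.

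Rian was the most abundant of them, at 22.8 and 21.8 FPKM in wild type 1 and 2, 7.90 FPKM in knockout 1 and 0.0333 FPKM in knockout 2. Taken as 1 read, the last value has an exact 95% Poisson interval of 0.000844 to 0.186 FPKM that covers counting error only. Both knockout-labelled libraries were below both wild types, but they were far from each other, and the log2 difference of -2.94 had an SE of 1.11 (adjusted p = 0.302, limma). In knockout 1 alone the log2 difference was -1.39. Meg3 stood at 6.49 and 7.37 FPKM in wild type and 4.02 FPKM in knockout 1. It had 0 reads in knockout 2, where 3 reads would give 0.052 FPKM, so the wild-type mean was at least 133-fold higher (adjusted p = 0.356 for the groups, limma). Mirg, at 0.606 and 0.310 FPKM in wild type, stood at 0.155 and 0.0287 FPKM in knockout 1 and 2, levels that rest on few reads (at least 4, 1, 10 and 9).

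Dlk1 and Dio3 were low in knockout 2 and not in knockout 1. Dlk1 stood at 1.72 FPKM in knockout 1 and at 1.43 and 1.54 FPKM in wild type, with 0 reads in knockout 2, where 3 reads would give 0.0699 FPKM. Its wild-type mean was thus at least 21.2-fold above knockout 2. Dio3 was highest in knockout 1, at 6.78 FPKM, with 3.81 and 3.52 FPKM in wild type and 0.350 FPKM in knockout 2. Neither passed (adjusted p = 0.606 and 0.780, limma), and both turn to the higher side without knockout 2. Rtl1 stood at 0.0199 FPKM in knockout 1, 0 in knockout 2 and 0.0467 and 0.0354 FPKM in wild type, on at most 4 reads. At the ends of the locus Dlk1 and Dio3 were thus level with or above wild type in knockout 1, while the noncoding RNAs between them stood below it. In that library Meg3 came to 50.8% of the level of Rian, compared with 28.5% and 33.8% in wild type.

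The neighbours of the locus were by median not low to the same degree. The 30 other tested genes that start within 2 Mb of Meg3 had log2 differences between -1.34 and 0.68 in knockout 2, with a median of -0.08, and between -0.87 and 0.53 in knockout 1, with a median of -0.34. In knockout 2 the differences of the 4 tested members were -1.31 (Dlk1), -1.79 (Dio3), -2.98 (Meg3) and -4.49 (Rian), and that of Dlk1 is bounded by its low wild-type level on this scale. Of the 30 neighbours 3 were at least 2-fold below both wild types in knockout 2, beside 5.87% of all tested genes. The lowest of them (-1.34) lay slightly below Dlk1. Over chromosome 12 without the members the median log2 difference was -0.39 in knockout 1 and -0.12 in knockout 2.

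**Figure D3:**
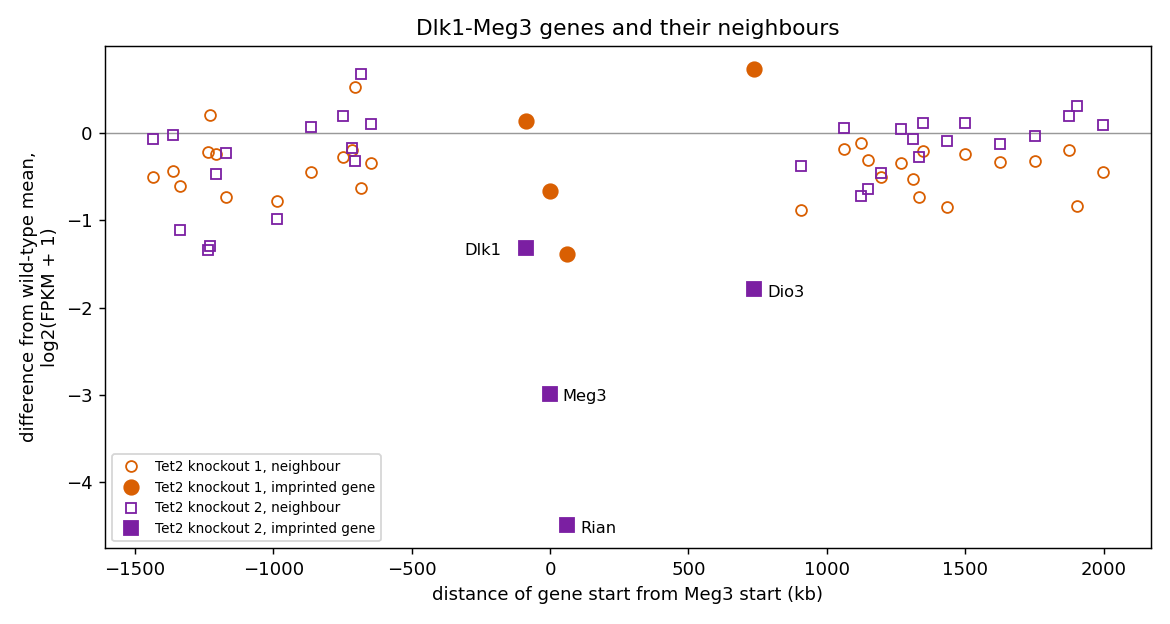
Difference from the wild-type mean in log2(FPKM + 1) for each tested gene that starts within 2 Mb of Meg3, against the distance of its start from that of Meg3 in kb. Circles are knockout 1 and squares knockout 2, filled for Dlk1, Meg3, Rian and Dio3 and open for neighbours; the 4 filled squares lie between -1.31 and -4.49, and the open squares between -1.34 and 0.68.

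The Snrpn region of chromosome 7, known for Prader-Willi and Angelman syndromes in humans, was split. Ndn, which encodes necdin, a growth-restraining protein of the MAGE family expressed from the paternal copy, stood at 40.5 and 42.8 FPKM in wild type 1 and 2. It stood at 22.4 FPKM in knockout 1 and 0.709 FPKM in knockout 2, from at least 586 and 25 reads. Both knockout-labelled libraries were below wild type, with log2 differences of -0.87 and -4.64 taken as separate libraries, so that the spread between them is large (log2 difference -2.75, SE 1.34, adjusted p = 0.372, limma). Snrpn, a paternally expressed gene for a spliceosomal protein in the same region, went the opposite way in knockout 2. It stood at 9.82 FPKM there, at 2.55 FPKM in knockout 1 and at 3.85 and 3.96 FPKM in wild type (adjusted p = 0.782, limma). The exons of Snrpn share 589 bases with Gm38393, which stood at 5.74 FPKM in knockout 2, 2.10 FPKM in knockout 1 and 1.91 and 2.13 FPKM in wild type. The values of both genes thus depend on how the authors' counting treated reads over the shared bases. Snrpn was thus 9.24% to 11.4% of the level of Ndn in 3 libraries and 1385% of it in knockout 2.

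Ube3a, the ubiquitin ligase gene of the region, which is maternally expressed in neurons, stood at 58.6 FPKM in knockout 1, 34.5 FPKM in knockout 2 and 39.3 and 42.5 FPKM in wild type (adjusted p = 0.824, limma). Snhg14, the long host transcript of small nucleolar RNAs that runs antisense to Ube3a, stood at 8.15 and 11.3 FPKM against 5.63 and 5.26 FPKM, above both wild types in both libraries (log2 difference 0.72, adjusted p = 0.250, limma). The exons of Ube3a and Snhg14 share 1803 bases, and whether reads were counted by strand is not given in the sources used here. Magel2 was listed at 0.0121 FPKM in wild type 2 and at 0 in the others. The log2 difference of Ndn in knockout 2 stands beside a median of -0.46 over the other 864 tested genes of chromosome 7 in that library, and near 0 in knockout 1. The 3 other tested genes that start within 2 Mb of Ndn (Peg12, Klf13 and Mtmr10) were also below wild type in knockout 2, by log2 differences of -0.37 to -1.21 with a median of -0.84, and Mtmr10 was at least 2-fold below both wild types. In knockout 1 their median difference was -0.55, and Mtmr10 was the highest at 0.32.

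**Figure D4:**
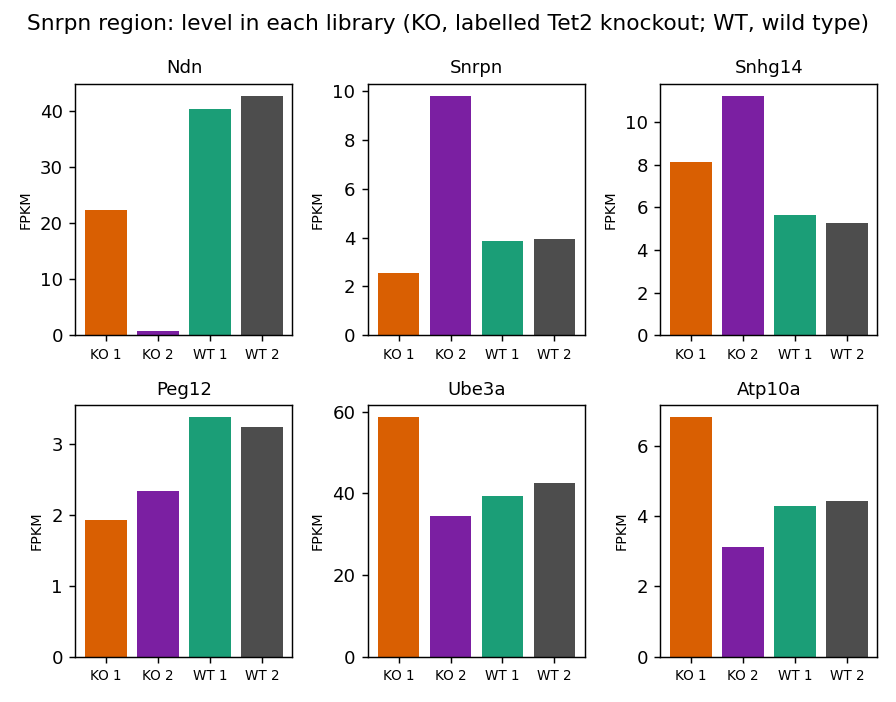
Level in FPKM in each of the 4 libraries, 1 bar per library, for Ndn, Snrpn and Ube3a and for Snhg14, Peg12 and Atp10a of the same region. In knockout 2 Ndn was nearly absent (0.709 FPKM) while Snrpn reached its highest level (9.82 FPKM).

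Knockout 2 was the library in which most imprinted genes stood away from wild type. In it 8 of the 21 tested members were at least 2-fold below both wild types (5.87% of all tested genes), H19 and Dlk1 among them, which reached the minimum for a test only through other libraries, and 3 at least 2-fold above both (5.14% of all). In knockout 1 there were 2 below (2.37% of all) and 2 above (3% of all). Dlk1, Dio3, Meg3, Rian and Ndn were at least 2-fold below each of the other 3 libraries in knockout 2, as were 3.35% of all tested genes. In knockout 1 none of the 21 was, against 0.915% of all, and this comparison was chosen after the values were seen. Without knockout 2 the members at least 2-fold apart in every pair numbered 4. These were Grb10, Peg13, Airn and Rian, which could not drop out when pairs were removed, and no member was added. By median log2 difference the tested osteoblast (5.03) and adipocyte (2.05) markers, given above, were also higher in knockout 2 than in knockout 1. By summed level the adipocyte markers were higher in knockout 1 (216 against 61.6 FPKM), and the osteoblast markers were nearly equal (3936 and 3904 FPKM). The adipocyte sum in knockout 1 was mostly Lpl (190 FPKM, against 17.4 FPKM in knockout 2). Both osteoblast sums were mostly Spp1 (3871 and 2528 FPKM in knockout 1 and 2). The other tested markers of both lists were each higher in knockout 2, such as Alpl (501 FPKM, against 8.21 FPKM in knockout 1). The part of these markers in the differences of the imprinted genes was not tested.

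**Figure D5:**
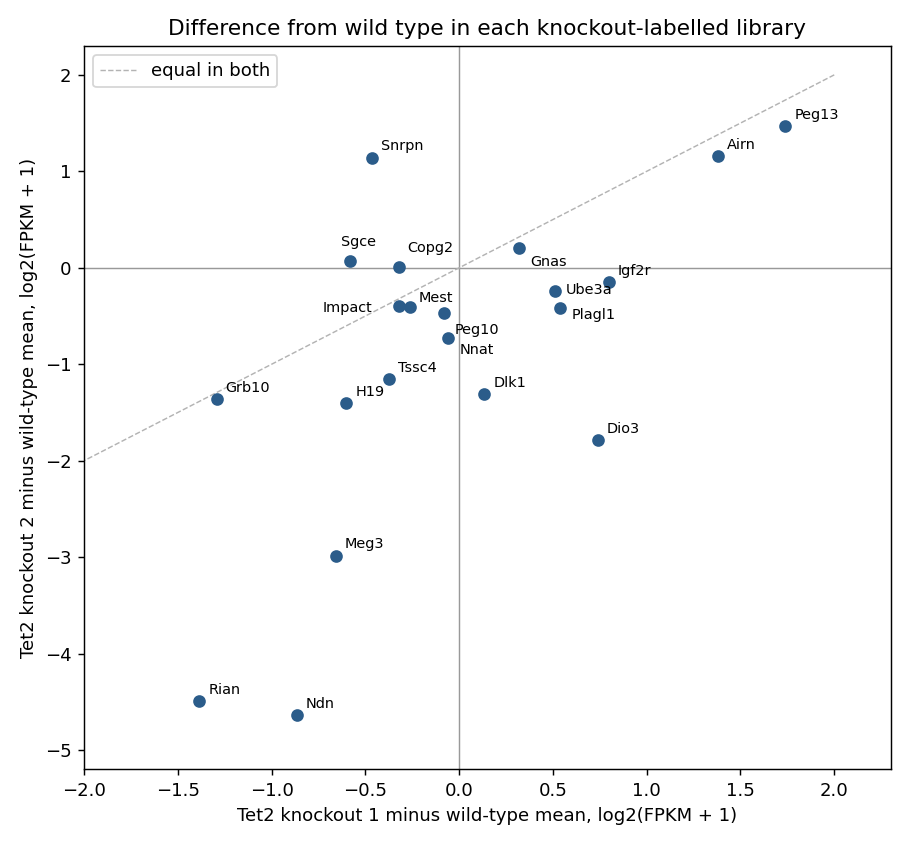
Difference from the wild-type mean in log2(FPKM + 1) for the 21 tested imprinted genes, knockout 1 on the horizontal and knockout 2 on the vertical axis, 1 point per gene, with the dashed line where both are equal. Grb10 (-1.29 and -1.36), Airn (1.38 and 1.16) and Peg13 (1.74 and 1.47) lie near the line, while Rian, Ndn, Meg3, Dio3 and Dlk1 lie far below it.

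The Igf2-H19 locus of chromosome 7 was close to silent. H19, the maternally expressed noncoding RNA, stood at 1.25 and 2.13 FPKM in wild type and 0.746 FPKM in knockout 1. It had 0 reads in knockout 2, where 3 reads would give 0.111 FPKM, so the wild-type mean was at least 15.2-fold above that library. The groups did not overlap (log2 difference -1.01, SE 0.39, adjusted p = 0.312, limma), on at least 15, 0, 16 and 48 reads. The difference was -0.60 without knockout 2, -1.41 without knockout 1 and -4.24 with a pseudocount of 0.01, and H19 reached the minimum for a test only through the wild types. Igf2, the fetal growth factor gene expressed from the paternal copy, was not tested. It stood at 0.505 and 0.328 FPKM in the knockout-labelled libraries and at 0.198 FPKM and 0 in wild type, on at least 8, 7, 2 and 0 reads.

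In the Kcnq1ot1 cluster, also on chromosome 7, Tssc4, a gene for a splicing assembly factor, was the only member tested. It stood at 18.0 and 10.1 FPKM against 23.1 and 24.2 FPKM, below both wild types in both libraries (log2 difference -0.76, SE 0.30, adjusted p = 0.316, limma), beside the chromosome 7 median given above. Kcnq1ot1, the paternally expressed noncoding RNA that silences the cluster, stood at 0.407 and 0.576 FPKM against 0.291 and 0.333 FPKM. These values rest on at least 545, 1037, 248 and 500 reads over its great length, and the groups did not overlap, while its host gene Kcnq1 was listed at 0 in all libraries. The transporter gene Slc22a18 stood between 0.258 and 0.818 FPKM. Cdkn1c, which encodes a cell cycle inhibitor, Phlda2, a regulator of placental growth, and Ascl2, a transcription factor gene, stayed at or below 0.165 FPKM.

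The remaining loci showed small differences or low levels. Gnas, the gene of the stimulatory G protein alpha subunit, stood at 12.1 and 11.1 FPKM against 9.07 and 9.92 FPKM, above both wild types (adjusted p = 0.405, limma), summed over transcripts of which some come from the maternal and some from the paternal copy. Mest, a hydrolase-family gene expressed from the paternal copy, stood at 4.49 and 3.95 FPKM against 5.75 and 5.42 FPKM (adjusted p = 0.367, limma). Its antisense partner Copg2, a coat protein gene with which it shares 912 exon bases, stood between 38.7 and 49.8 FPKM in all libraries.

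Of the Peg10 locus, Peg10, a retrotransposon-derived gene, stood at 7.84 and 5.79 FPKM against 8.30 and 8.43 FPKM. Sgce, the epsilon-sarcoglycan gene that starts next to it on the other strand, was lower in knockout 1 only, at 27.0 FPKM, with 43.0, 39.4 and 42.5 FPKM in knockout 2, wild type 1 and wild type 2. The coding genes Peg10 and Sgce thus each had 1 knockout-labelled library near wild type, and it was not the same one. Ppp1r9a, which encodes an actin-binding protein, stood at 0.841 FPKM in knockout 1 and at 0.130, 0.149 and 0.099 FPKM in knockout 2, wild type 1 and wild type 2.

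Plagl1, the gene of a zinc finger transcription factor known in mouse to regulate other imprinted genes, differed in opposite directions, at 12.4 FPKM in knockout 1 and 5.93 FPKM in knockout 2 beside 7.78 and 8.72 FPKM in wild type (adjusted p = 0.943, limma). Nnat, which encodes a small membrane protein of the endoplasmic reticulum, varied as much within as between the groups, at 2.53 and 1.22 FPKM against 3.62 and 1.92 FPKM (adjusted p = 0.615, limma). In the Peg3 cluster the zinc finger gene Peg3 stood at 1.37 FPKM in knockout 2 and at 0.0722, 0.227 and 0.167 FPKM in knockout 1, wild type 1 and wild type 2, from at least 128, 5, 10 and 13 reads. Its neighbours Usp29, a deubiquitinase gene, and Zim1, a zinc finger gene, stayed below 0.57 FPKM. Rasgrf1, an exchange factor gene for Ras, and Nap1l5 stayed at or below 0.357 FPKM.

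Members were grouped by the parental copy known to be used in at least some tissues. Of the 7 tested maternally expressed members 4 lay below both wild types and 0 above both, with a median log2 difference of -0.76. Meg3 and Rian, both among the 4, belong to the same locus. Ube3a, maternally expressed in neurons, was counted among the 7 and overlapped the wild types. Of the 12 tested paternally expressed members 4 lay below both and 2 above both, with a median of -0.31. Grb10, below both wild types, and Gnas, above both, were left out because the copy used varies by tissue or transcript. The use of either copy was not measured, and the shares over all genes were 24.8% below and 29.4% above. Of the 7 noncoding members, Airn and Peg13 lay above both wild types and Meg3, Rian and H19 below both, where the groups of 54.2% of all tested genes did not overlap. Kcnq1ot1 and Mirg were too low to be tested, and H19, also counted among the maternally expressed members, was tested only through its wild-type level.

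Among 20 regulators of imprinting control regions and of DNA methylation, 16 were tested. Of these, 9 lay above both wild types and 0 below both, with a median log2 difference of 0.23, against 29.4% and 24.8% of all tested genes. Tet2 itself, the gene named in the group labels, is counted among the 9. None passed by limma, and 2 had an unadjusted p under 0.05, beside 17.1% of all tested genes. Zfp445, a zinc finger gene whose product protects imprints together with ZFP57, stood at 16.0 and 19.3 FPKM in the knockout-labelled libraries against 8.33 and 8.42 FPKM (log2 difference 0.99, SE 0.15, adjusted p = 0.204, limma). Setdb1, which encodes a histone H3 methyltransferase recruited by such factors, stood at 20.6 and 19.1 FPKM against 11.3 and 12.6 FPKM (adjusted p = 0.224, limma). Zfp57 stood at 40.9 and 22.6 FPKM against 36.0 and 35.5 FPKM and its partner Trim28 at 312 and 164 FPKM against 314 and 280 FPKM, both lowest in knockout 2.

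Of 57 other genes in or beside the imprinted loci, 56 were found and 33 tested. There were 9 above both wild types and 11 below both, the median log2 difference was -0.08, and none passed by limma, with 3 higher and 3 lower at an unadjusted p under 0.05. Over all tested genes 29.4% lay above both and 24.8% below both, and 17.1% had such a p. Beside H19 lie Mrpl23, at 7.59 and 9.13 FPKM against 16.3 and 18.8 FPKM (log2 difference -0.99, adjusted p = 0.211, limma), and Lsp1, at 47.4 and 33.2 FPKM against 78.0 and 76.9 FPKM (log2 difference -0.95, adjusted p = 0.231, limma). Cd81, beside Tssc4, stood at 340 and 200 FPKM against 555 and 544 FPKM (log2 difference -1.07, adjusted p = 0.246, limma). Tfpi2, near the Peg10 locus, stood at 2.94 and 2.78 FPKM against 1.27 and 1.44 FPKM (adjusted p = 0.240, limma).

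Genes of the insulin-like growth factor axis, on which Igf2, Igf2r and Grb10 act, were tested in 10 of 13 cases. Of these, 4 lay above both wild types and 2 below both, and none passed by limma, with 3 higher and 1 lower at an unadjusted p under 0.05. The shares over all tested genes were 29.4% above, 24.8% below, and 8.84% higher and 8.29% lower at that p. Igfbp4, a binding protein gene, stood at 53.9 ± 4.54 against 30.4 ± 0.570 FPKM (mean ± SD, n = 2 each, log2 difference 0.80, SE 0.13, adjusted p = 0.202, limma). The docking protein gene Irs1 stood at 14.3 and 31.6 FPKM against 7.44 and 7.70 FPKM (adjusted p = 0.253, limma), and the insulin receptor gene Insr at 11.8 and 11.4 FPKM against 7.99 and 8.64 FPKM (adjusted p = 0.263, limma). Igfbp3 lay on the other side, at 2.51 and 0.862 FPKM against 4.75 and 4.77 FPKM (adjusted p = 0.261, limma).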

How the data were processed

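The authors deposited 1 table of FPKM for 41029 genes in 4 libraries, 2 labelled Tet2-/- and 2 wild type; each column was matched to a library by its title. Per the submitters' processing notes, the tools were TopHat2 2.0.12, Bowtie2 2.2.3 and HTSeq 0.6.1, and the build mm10. How gene lengths were set and whether strand was used are not given in the sources used here. Gene names and positions were taken from GENCODE M21, on GRCm38, the assembly called mm10, which holds 40456 of the identifiers.

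An FPKM is a whole number of reads divided by length and library total. Each library's total was the commonest whole number obtained by treating every gene as 1 read over its annotated exon length. Reads were those given by that length where whole in all 4 libraries, to within 0.001 read, and otherwise by the smallest length that made them whole. They are lower bounds in the second case, which holds for all members above 0 but 2. They came to between 97.9% and 98.1% of each total.

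Genes averaging at least 1 FPKM (12344) were tested on log2(FPKM + 1) with limma 3.58.1 (R 4.3.3), with a mean-variance trend, two-sided, with Benjamini-Hochberg adjustment over these genes and a threshold of 0.05. Wild type was subtracted from knockout-labelled in all log2 differences, on a scale whose pseudocount of 1 understates changes of low genes, while folds are ratios of mean FPKM. FPKM are relative to the library's total. Poisson intervals and limits from 3 reads cover counting error only. The fit was tested on simulated data. Alternatives were pseudocounts of 0.1 and 0.01, no filter or a mean of at least 5 FPKM, trimmed-mean and quantile scaling, limma-voom on reads, each library left out, and a replicate block. The members, lists and alternatives were chosen with earlier results of these data known. All 37 members are named; of each other list, up to 4 genes with the smallest p and those overlapping a member were. Zfp57, Trim28, Peg12, Atp10a, Fignl1, Klf13, Mtmr10, Gm38393, Thbs2, Spp1, Alpl and the adipocyte markers were named after their values were seen.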

Additional observations from a re-analysis of the deposited data

How the results depend on the processing

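No imprinted gene passed under any of the 8 alternatives that kept all 4 libraries, and 36 members could be tested without the filter. Leaving out 1 library gave 0 to 17 members past the threshold, 17 without knockout 1 and 16 without knockout 2, fits in which the single library left in that group borrows the wild-type spread, and 0 without either wild type. Over all genes 2 passed, 1 with a pseudocount of 0.1 or of 0.01, 0 by limma-voom on reads (2045 at an unadjusted p under 0.05), and 0 to 7415 with 1 library left out. Members at an unadjusted p under 0.05 numbered 8 without the filter, 2 with a mean of at least 5 FPKM and 3 to 17 with 1 library left out. Members whose groups did not overlap numbered 19, 7 and 12 to 20 in the same order, and those 2-fold apart in every pair 2 with a mean of at least 5 FPKM and 4 to 11 with 1 library left out. The median of the members was -0.048 without the filter, which adds low genes, and -0.42 to -0.26 with 1 library left out. Grb10 stayed between -1.59 and -1.28, Peg13 between 1.47 and 2.09 and Airn between 1.16 and 1.66 on the log2 scale, each without a pass in fits of all 4 libraries (adjusted p from 0.145 to 0.446, limma).

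Plagl1 changed sign by limma-voom on reads (-0.013). With 1 library left out the sign changed for Plagl1 (-0.42 to 0.54), Copg2 (-0.32 to 0.011), Igf2r (-0.15 to 0.80), Sgce (-0.58 to 0.072), Ube3a (-0.24 to 0.51), Dio3 (-1.79 to 0.74), Dlk1 (-1.31 to 0.13) and Snrpn (-0.47 to 1.14), for all but Plagl1 only when a knockout-labelled library was left out. The cause was not tested. The sizes of Rian (-4.49 to -1.39), Meg3 (-2.98 to -0.66), Ndn (-4.64 to -0.87), H19 (-1.41 to -0.60) and Tssc4 (-1.15 to -0.37) varied with 1 library left out. In each the larger size was the one without knockout 1. Their sign could not change, because both knockout-labelled libraries lay below both wild types. With the replicate numbers of the titles as a replicate block 0 genes and 0 members passed (1328 genes and 4 members at an unadjusted p under 0.05); deviations of same-numbered libraries were uncorrelated (0.00612 across genes), so the numbers are not read as pairs. Depth limits the 11 members whose smallest possible counts are 10 reads or fewer.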
